A study of Arabidopsis thaliana with 8 samples.

Results

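Mitotic nuclei were nuclei, sorted from Arabidopsis seeds with globular embryos, whose RNA held transcripts of genes used at the end of the cell cycle. They were chosen by those transcripts alone. A nucleus was retained when its counts summed to at least 100000 and at least 1000 features had a count above 0. A retained nucleus was a member when at least 3 of 5 rule genes had a count of at least 1. The rule genes were TPX2 (AT1G03780), which nucleates spindle microtubules, MAD2 (AT3G25980), a spindle checkpoint protein, CDC20.1 (AT4G33270), an activator of the anaphase-promoting complex, PLE (AT5G51600), a microtubule-bundling protein of the phragmoplast, and AT3G52110, to which no role is given here. By this rule 76 of 534 retained nuclei were mitotic, 14.2% with an exact Clopper-Pearson 95% interval of 11.4% to 17.5%. The remaining 458 retained nuclei are called other nuclei. No stain or measure of DNA content separated the phases of the cell cycle, so the name rests on transcripts and on nothing seen in the nucleus.

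All nuclei were labelled as globular embryos of Arabidopsis thaliana Col-0, genotype wild type, with no treatment and no second genotype. The plants carried both pWOX2::H2B-GFP and pWOX2::tdTomato-RCI2b (together called pWOX2::NLS-GFP), and Col-0 without a transgene served to set the sorting gates. Fixed nuclei within the gates for the DNA stain DAPI and for GFP were sorted 1 to a well, so activity of the WOX2 promoter, together with the gate, set which nuclei were collected. The study set aside nuclei that resembled seed coat, and then a cluster of poor quality that was enriched for several cell types. All retained nuclei were kept here, so embryonic origin was not established for each member. In all, 744 wells on 8 plates were sequenced with Smart-seq2, a full-length method without molecular identifiers. Seeds were pooled before sorting and nothing states that plates came from separate plants, so p-values over plates measure the spread between plates.

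Plant cells enter mitosis when B-type cyclins bind cyclin-dependent kinases, and leave it when the anaphase-promoting complex, a ubiquitin ligase switched on by CDC20 and CCS52 proteins, marks those cyclins for destruction. Sister chromosomes are pulled apart on a spindle of microtubules, and a second array, the phragmoplast, then carries vesicles to the plane of division, where the syntaxin KN fuses them into the new cell plate. Transcription of many of these genes peaks late in the cycle and is driven by MYB3R factors, which bind the mitosis-specific activator (MSA) element in their promoters. In the globular embryo the outer layer becomes the protoderm, inner cells found the vascular and ground tissue, and the suspensor joins the embryo to the seed.

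The summed estimated counts of a plate ranged from 21257800 to 50998300, and the mitotic nuclei of a plate together held 1936520 to 9161160 counts of nuclear genes. Nuclear genes were 32222 of 33668 features and took 88.7% of counts, and levels are given as CPM, counts summed over the nuclei of a class on 1 plate, divided by the summed counts of nuclear genes without the rule genes and scaled in the usual way. Transcripts of AT3G06355, a noncoding locus that overlaps ribosomal RNA genes, took a median of 13.3% of the counts of mitotic nuclei (lowest plate 2.69%, highest 20.21%) and 8.98% of those of matched nuclei (2.04% to 18.9%). Seed coat genes were detected in most retained nuclei of every class, for example CHS, the first enzyme of flavonoid synthesis, in 80.3% of mitotic, 81.6% of matched and 78.2% of all other nuclei after every nucleus was thinned to 100000 counts.

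Every plate held mitotic nuclei. Their number was 8, 12, 16, 11, 5, 4, 13 and 7 on plates 1 to 8, and their share of retained nuclei ranged from 7.55% on plate 6 (2.09% to 18.2%) to 21.9% on plate 3 (13.1% to 33.1%). The intervals of these 2 plates overlapped, and all such intervals cover counting error only. Of all retained nuclei, 296 had none of the rule genes, 121 had 1, 41 had 2, 32 had 3, 19 had 4 and 25 had all 5. The 41 nuclei just outside the rule held a median of 134 rule gene counts, the 32 just inside it 288.5, and the 25 nuclei with all 5 genes 1839. These counts are summed over the genes that define the groups, so a rise with the number of genes follows from the rule. The boundary at 3 genes cut a range rather than a gap. Median total counts were 387838 with no rule gene and 517727, 501436, 521416, 458930 and 528984 with 1, 2, 3, 4 and 5.

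**Figure D1:**
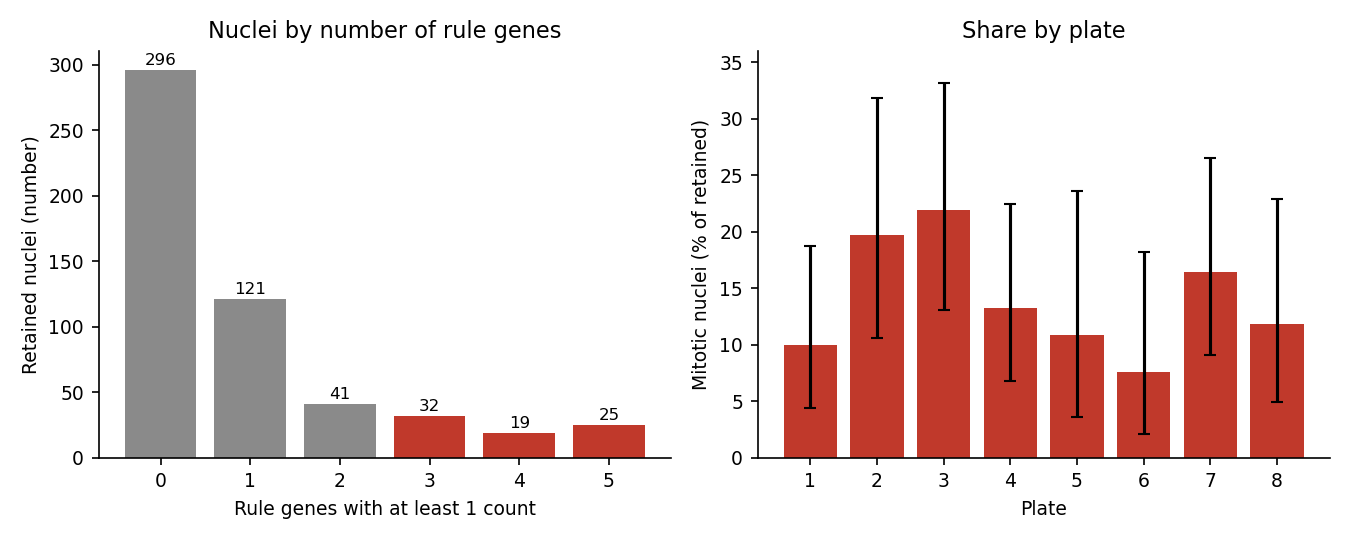
Left, number of retained nuclei (vertical axis) by how many of the 5 rule genes had a count of at least 1 (horizontal axis). Right, percent of retained nuclei called mitotic on each plate, as bars with exact 95% Clopper-Pearson intervals. The 76 nuclei with 3, 4 or 5 rule genes were the mitotic nuclei, and the share was lowest on plate 6 and highest on plate 3.

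The values of the rule genes chose the members and are given as a description, with no test. TPX2 was detected in 62 of 76 mitotic nuclei (81.6%) and in 24 of 458 other nuclei (5.24%). Its lowest, median and highest levels over the 8 plates were 226, 728 and 1839 CPM in mitotic nuclei and 0, 0 and 45.1 CPM in matched nuclei, which are described below. MAD2 was detected in 64 of 76 mitotic nuclei (84.2%) and in 48 of 458 other nuclei (10.5%), and CDC20.1 in 64 of 76 mitotic nuclei (84.2%) and in 51 of 458 other nuclei (11.1%). PLE had reads in 59 mitotic and 45 other nuclei, and AT3G52110 in 48 and 35. No rule gene was in every mitotic nucleus, and each was also found in some nuclei outside the rule. A mitotic nucleus held 9 rule gene counts at the lowest, 968 at the median and 23574 at the highest, and 3 of 76 held fewer than 50. In 59 of 76 members at least 3 rule genes had 10 or more counts, and 66 of 76 remained members after thinning to 100000 counts.

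Genes outside the rule gave the same order. Of 116 genes in 6 lists of the mitotic apparatus, described below, the median number detected after thinning was 11 in nuclei with no rule gene, 15 with 1, 21 with 2, 30.5 with 3, 38 with 4 and 42 with all 5. The nuclei with 1 or 2 rule genes, which count as other nuclei here, thus lay between the extremes and were not free of mitotic transcripts. The 28 genes of the DNA replication list ran the other way, with medians of 4 genes in nuclei without a rule gene, 3 with 1 or 2, 2 with 3, and 1 with 4 or 5.

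Mitotic nuclei had more detected features than other nuclei. Over plates, the median number of features of mitotic nuclei was 2078.5 at the lowest, 2815 at the median and 5674 at the highest, against 1606.5, 2499 and 3429 in other nuclei. The mean difference of the plate medians was 636 features, higher on 8 of 8 plates (exact two-sided sign-flip permutation p = 0.0078, the smallest 8 plates allow). Median counts differed by 138444 on average, higher on 6 of 8 plates (exact permutation p = 0.047), and without plate 1, 4, 5, 6, 7 or 8 that p was between 0.062 and 0.094. Because the rule asked for detected genes, some of this difference follows from the rule, and its size was not tested apart from it. Each mitotic nucleus was therefore matched, without replacement, to another nucleus of its plate with the nearest number of features, which gave 76 matched nuclei with a median gap of 29 features and a largest gap of 2156. Matched nuclei had plate medians of 2084.5, 2814 and 5644 features, a mean difference of 20.125 from mitotic nuclei (exact permutation p = 0.16). Their counts differed by 62368 (exact permutation p = 0.30).

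Summed per plate and fitted over all genes with plate as a block, mitotic nuclei were higher than matched nuclei in 102 of 9886 genes tested (1.03%) and lower in 41 (0.415%) at an edgeR adjusted p below 0.05. The median log2 difference of all tested genes was -0.09, so the scale was close to centred. Genes in the lists of the division machinery and of its transcription regulators were 26 of the 102, and 5 of the 41 lower genes were in the lists of DNA replication and suspensor genes. These lists were chosen with earlier results known, and the number of genes tested in each is given below. Of the 102 higher genes, 69 were higher on all 8 plates, 96 on at least 7, and for 36 the plate values of the classes did not overlap. Of the 41 lower genes, 13 were lower on all 8 plates, 34 on at least 7, and 3 did not overlap. The lower count rested on single plates, with 19 genes without plate 3, 18 without plate 7 and 21 without plate 8. Other tools moved both counts: DESeq2 called 382 higher and 556 lower, limma 253 and 162, and edgeR without the plate block 32 and 4. The rule genes took no part in the test, although genes that are transcribed with them were favoured by the choice of nuclei. Log2 differences below are edgeR fits over 8 plates, whose standard errors (SE) were derived from the test statistic and add nothing to it. In summed counts, fewer nuclei with a transcript and less transcript per nucleus cannot be told apart, so the number of nuclei with reads is given beside the levels. Of the 143 called genes, 49 overlap another annotated gene, whose reads cannot be told apart where the counting ignored strand.

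In the edgeR fit, mitotic cyclins and their kinases formed the group with the highest median. Of 22 genes, 18 were tested, 8 rose and none fell, and the median log2 difference was 5.13, beside -0.09 over all genes tested. By limma their median was 1.69, below that of the ribosome biogenesis genes, 2.30. At an unadjusted edgeR p below 0.05, 12 of the 18 were higher, beside 337 of all 9886 genes tested. DESeq2 and limma each called 12 higher. The 8 edgeR calls were 7 B-type cyclins, the subunits that switch on mitotic kinases, and CDKB1;2, a kinase found only in plants. CYCB1;2 (AT5G06150) had a lowest, median and highest plate value of 172, 361 and 1443 CPM in mitotic nuclei and 2.04, 23.4 and 48.8 CPM in matched nuclei. No plate of one class reached into the range of the other. The fitted log2 difference was 4.79 ± 0.91 (SE, edgeR adjusted p = 3.7e-05), with reads in 51 of 76 mitotic and 16 of 76 matched nuclei. CYCB2;4 (AT1G76310) had 89.5, 306 and 816 CPM in mitotic nuclei and 0, 0.713 and 34.6 CPM in matched nuclei. Here too the classes were apart, with a difference of 8.23 ± 1.23 (SE, edgeR adjusted p = 1.2e-08). CYCB2;2 (AT4G35620) had 40.7, 164 and 431 CPM in mitotic nuclei and 0, 0 and 4.19 CPM in matched nuclei. It was seen in 42 mitotic and 2 matched nuclei, a difference of 11.19 ± 1.93 (SE, edgeR adjusted p = 1.9e-06).

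Other B cyclins rose with plate ranges that touched. CYCB1;1 (AT4G37490), the cyclin widely used as a mitotic reporter in plants, had 33.9, 171 and 258 CPM in mitotic nuclei and 0, 0.794 and 106 CPM in matched nuclei. It was higher on 7 of 8 plates, by 8.08 ± 2.06 (SE, edgeR adjusted p = 0.0096). CYCB1;3 and CYCB1;4 were higher on 8 of 8 plates, by 6.61 ± 1.83 (SE, edgeR adjusted p = 0.025) and 7.85 ± 1.85 (SE, edgeR adjusted p = 0.0027). CYCB2;3 was detected in 48 mitotic and 7 matched nuclei and differed by 9.10 ± 2.41 (SE, edgeR adjusted p = 0.014), higher on 7 of 8 plates. CDKB1;2 was detected in only 14 of 76 mitotic nuclei and differed by 9.30 ± 2.63 (SE, edgeR adjusted p = 0.032). These calls were lost when 1 plate was left out. CYCB1;1 lost the threshold for plates 2, 3 or 7, CYCB1;3 for plates 2, 6, 7 or 8, CYCB1;4 for plate 8, CYCB2;3 for plates 2, 3, 5, 7 or 8 and CDKB1;2 for plates 1, 2, 5, 6, 7 or 8. Without the nuclei with at least 3 suspensor markers, an alternative chosen after seeing the data and described below, CYCB1;1 and CDKB1;2 missed the threshold as well (edgeR adjusted p = 0.10 and 0.60).

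A-type cyclins, which act from S phase on, and CDKA;1 did not pass the edgeR test. CYCA1;1 had 0.358, 96.5 and 779 CPM in mitotic nuclei and 0, 7.74 and 133 CPM in matched nuclei and a log2 difference of 3.80 ± 1.57 (SE, adjusted p = 0.46, edgeR). CYCA2;4 had a difference of 2.15 and CDKA;1, the kinase used through the whole cycle, one of -1.39, with adjusted p of 1.0 for each. CDKA;1 was the only gene among the 18 tested with a negative difference.

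Of 12 tested genes of the anaphase-promoting complex and its regulators 4 rose, CCS52B, UBC20, PANS1 and CDC20.2, and none fell, with a median log2 difference of 2.95. DESeq2 called 5 higher and 1 lower, and limma 4 higher. CCS52B (AT5G13840, FZR3 in the reference), an activator of the complex, had 989, 2324 and 3918 CPM in mitotic nuclei and 0.948, 35.6 and 490.4 CPM in matched nuclei. The lowest mitotic plate lay above the highest matched plate. The difference was 6.73 ± 0.56 (SE, edgeR adjusted p = 1.3e-29), and 59 of 76 mitotic nuclei had reads against 16 matched nuclei. UBC20, a ubiquitin-conjugating enzyme that works with the complex, had 74.1, 218 and 409.6 CPM in mitotic nuclei and 0, 0 and 47.4 CPM in matched nuclei. Its plate ranges were apart, and the difference was 10.95 ± 1.82 (SE, edgeR adjusted p = 5.9e-07). PANS1 (PATRONUS 1), which keeps sister chromatids together until anaphase, had 0, 146 and 659.6 CPM in mitotic nuclei and 0, 0 and 51.8 CPM in matched nuclei, differing by 8.48 ± 1.97 (SE, edgeR adjusted p = 0.0023). CDC20.2 (AT4G33260) differed by 5.90, but it is a near copy of the neighbouring rule gene CDC20.1, reads may be split between them, and although it is counted among the 4 here and among the 26 listed genes above, it is given as a description only. The core subunits APC1 and APC11 had differences of 0.50 and -2.25, and ESP (separase, the protease that opens cohesin) one of 0.76, none past the threshold.

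Of 11 tested genes of the spindle checkpoint and the Aurora kinases, 2 rose and none fell, with a median of 2.67 on the log2 scale. There 4 were higher at an unadjusted edgeR p below 0.05, 5 by DESeq2 and 3 by limma. BUBR1, which holds back anaphase until chromosomes are attached, had 31.7, 93.7 and 364 CPM in mitotic nuclei and 0, 0.315 and 14.2 CPM in matched nuclei. The plates of the classes did not overlap, and the difference was 7.79 ± 2.01 (SE, edgeR adjusted p = 0.011). AUR2, a kinase of spindle and cell plate, had 0, 110.3 and 231 CPM in mitotic nuclei and 0, 0 and 273 CPM in matched nuclei. Its plates overlapped, it was higher on 6 of 8, and the difference was 9.43 ± 2.55 (SE, edgeR adjusted p = 0.019). AUR2 also overlaps a neighbouring gene by 877 bases. Without a plate BUBR1 lost the threshold for plates 7 or 8 and AUR2 for plates 1, 2, 3, 4 or 6. Without suspensor-marked nuclei neither passed (edgeR adjusted p = 0.053 and 0.77). MAD1, the checkpoint partner of the rule gene MAD2, did not pass, with 4.30 (edgeR adjusted p = 0.67), nor did WYR, at 1.14, nor SGO2, a shugoshin that guards cohesin, at 0.77.

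Motors and other proteins of the spindle and phragmoplast microtubules gave 7 higher genes of 23 tested and no lower gene, with a median log2 difference of 2.98. At an unadjusted edgeR p below 0.05 there were 13 higher genes, and DESeq2 called 14 and limma 11. AT4G14330, annotated only as a P-loop nucleoside triphosphate hydrolase, had 347, 847 and 1764 CPM in mitotic nuclei and 0, 4.11 and 337 CPM in matched nuclei. The classes were apart on all plates, and the difference was 8.28 ± 0.91 (SE, edgeR adjusted p = 1.3e-16). ATK5, a minus-end directed kinesin of the spindle, had 129.8, 293 and 580.0 CPM in mitotic nuclei and 0, 0 and 171 CPM in matched nuclei. It was higher on 8 of 8 plates, by 10.89 ± 1.504 (SE, edgeR adjusted p = 3.5e-10), although 1 matched plate reached into the mitotic range. HIK (HINKEL), the kinesin that starts the kinase cascade of cytokinesis, had 38.6, 270.3 and 441 CPM in mitotic nuclei and 0, 0.340 and 85.0 CPM in matched nuclei, higher on 7 of 8 plates by 7.85 ± 1.74 (SE, edgeR adjusted p = 0.0011). TAN (ATN in the reference), which marks the division plane, had 37.0, 175 and 578 CPM in mitotic nuclei and 0, 0 and 27.1 CPM in matched nuclei. Its classes did not overlap, and it differed by 9.26 ± 1.77 (SE, edgeR adjusted p = 4.2e-05).

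Genes of this group that other nuclei also used differed less. POK2, a kinesin that guides the phragmoplast, had 463, 694 and 1499.8 CPM in mitotic nuclei and 14.3, 85.8 and 613 CPM in matched nuclei. It was detected in 65 mitotic and 17 matched nuclei, and the difference was 2.98 ± 0.65 (SE, edgeR adjusted p = 0.00086). AT2G28620 and AT2G37420, annotated as a P-loop hydrolase and a microtubule motor, differed by 5.50 ± 1.00 (SE, edgeR adjusted p = 9.3e-06) and 4.72 ± 1.00 (SE, edgeR adjusted p = 0.00041). MOR1, a microtubule polymerase at work in every phase, was detected in 70 mitotic and 64 matched nuclei, with 249, 569 and 1726 CPM in mitotic nuclei and 255, 332 and 606 CPM in matched nuclei. Its plates overlapped widely, and its difference of 0.71 ± 0.57 (SE, edgeR adjusted p = 1.0) did not pass. CLASP and ZWI (ZWICHEL, a kinesin) were at 0.14 and -0.52, not called.

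In the list of cell plate and cytokinesis signalling genes, 1 of 10 tested genes rose and none fell, and the median log2 difference was 2.79. Higher at an unadjusted edgeR p below 0.05 were 3 genes, and DESeq2 called 4 and limma 1. The gene called by edgeR was KN (AT1G08560, SYP111), the syntaxin of the cell plate. Its lowest, median and highest plate values were 36.5, 299 and 842 CPM in mitotic nuclei and 0, 0 and 7.26 CPM in matched nuclei. All mitotic plates were above all matched plates. The difference was 11.98 ± 1.66 (SE, edgeR adjusted p = 3.7e-10), with reads in 32 of 76 mitotic nuclei, 1 of 76 matched and 12 of all 458 other nuclei. KN overlaps its neighbour AT1G08550 by 464 bases. Partners of KN that other membrane traffic shares did not pass: KEU, which binds syntaxins, was at -0.41, the SNARE NPSN11 at 1.63 and the dynamin DRP1A at 0.00.

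Of 21 tested genes of chromosome condensation, cohesion and kinetochore, 3 rose and none fell, with a median log2 difference of 0.52. DESeq2 called 4 higher and 2 lower, and limma 3 higher. The 3 edgeR calls were DNA-binding proteins of the condensed chromosome. TOPII, topoisomerase II, which untangles sister chromatids, had 491, 1138 and 1740.0 CPM in mitotic nuclei and 58.5, 257 and 1035 CPM in matched nuclei. It was higher on 8 of 8 plates, by 2.31 ± 0.53 (SE, edgeR adjusted p = 0.0020), and 70 mitotic and 33 matched nuclei had reads. Without suspensor-marked nuclei TOPII missed the threshold (edgeR adjusted p = 0.094). 3xHMG-box2, a protein that binds chromosomes in mitosis, had 793, 2072 and 3665 CPM in mitotic nuclei and 71.4, 126 and 3683 CPM in matched nuclei. The median plates lay far apart, but 1 matched plate reached the highest mitotic plate, and it was higher on 7 of 8 plates by 3.71 ± 0.46 (SE, edgeR adjusted p = 4.3e-13). 3xHMG-box1 differed by 3.90 ± 0.76 (SE, edgeR adjusted p = 7.2e-05). The cohesin subunits SMC1 and SMC3, which hold sister chromatids from replication on, were at 0.10 and 0.38, and the condensin subunit CAP-E1 at 0.81, with overlapping plates and no call.

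Among the regulators of cell cycle transcription 1 of 14 tested genes rose, none fell, and the median log2 difference was -0.03, close to that of all genes. Higher at an unadjusted edgeR p below 0.05 were 2 genes, and DESeq2 called 3 and limma 2. The gene called by edgeR was AT1G63100, annotated as a GRAS family transcription factor. It had 1545, 4938 and 8798 CPM in mitotic nuclei and 18.6, 333 and 1265 CPM in matched nuclei. The lowest mitotic plate exceeded the highest matched plate. Its difference of 4.21 ± 0.33 (SE, edgeR adjusted p = 1.0e-32) had the smallest p of all 9886 genes, with reads in 71 of 76 mitotic and 32 of 76 matched nuclei. MYB3R4, an activator that binds the MSA element, had a difference of 7.32 and its relative MYB3R5 of 4.38, neither past the threshold (edgeR adjusted p = 0.40 and 0.95). TSO1, ALY2 and ALY3, subunits of the plant DREAM complex, were at 2.26, 0.75 and 0.45. E2FA, E2FB and RBR1, which govern entry into S phase, were at -2.66, -2.50 and -3.06 and were not called.

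**Figure D2:**
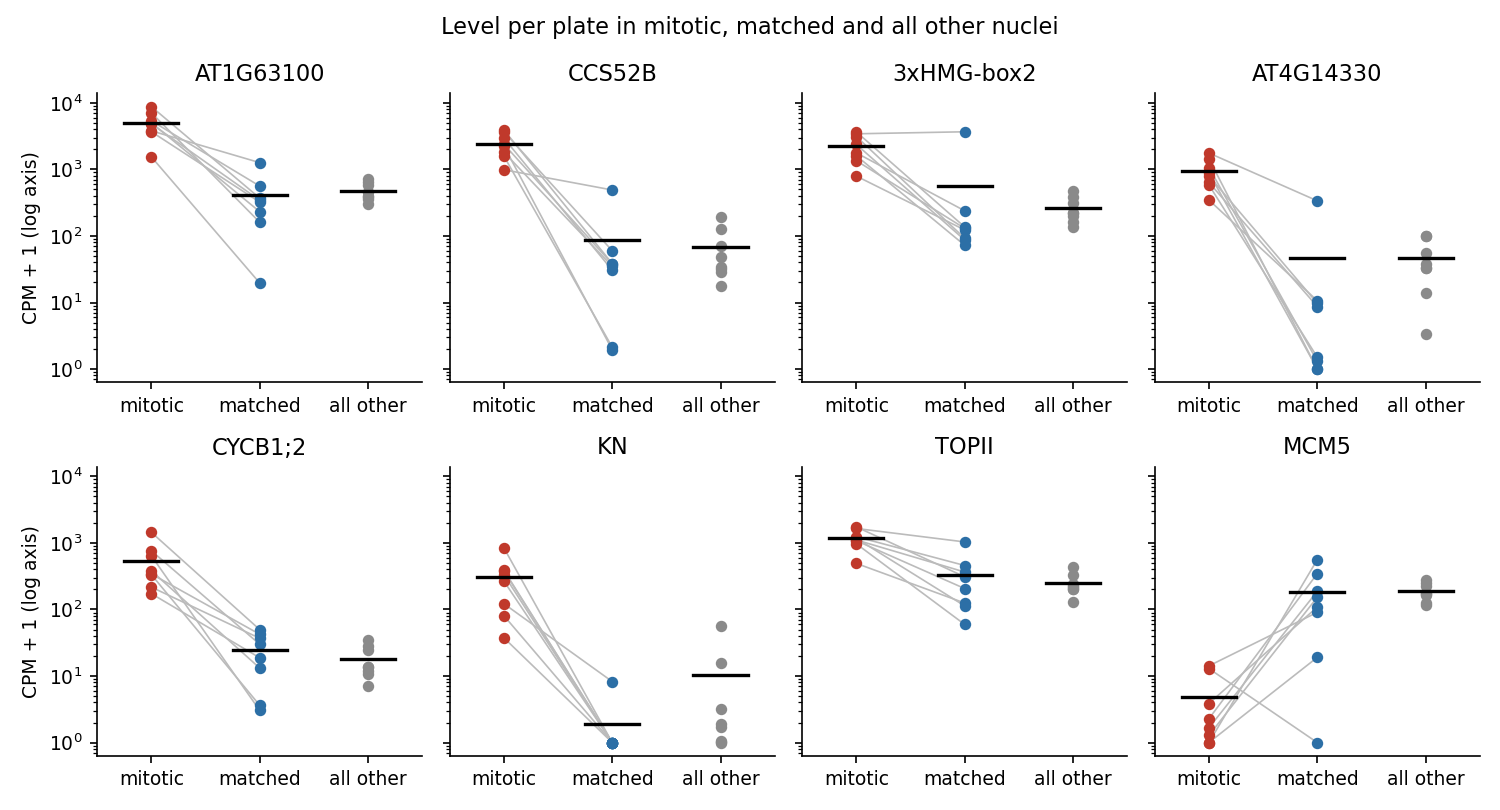
Level of 8 genes in mitotic, matched and all other nuclei, in CPM of nuclear genes plus 1 on a log axis. Each point is 1 plate, lines join mitotic and matched nuclei of the same plate, and black bars are means over 8 plates. Mitotic and matched nuclei are separate for KN, CCS52B, CYCB1;2, AT4G14330 and AT1G63100 and overlap for TOPII and 3xHMG-box2. MCM5 is lower in mitotic than in matched nuclei on 7 of 8 plates.

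**Figure D3:**
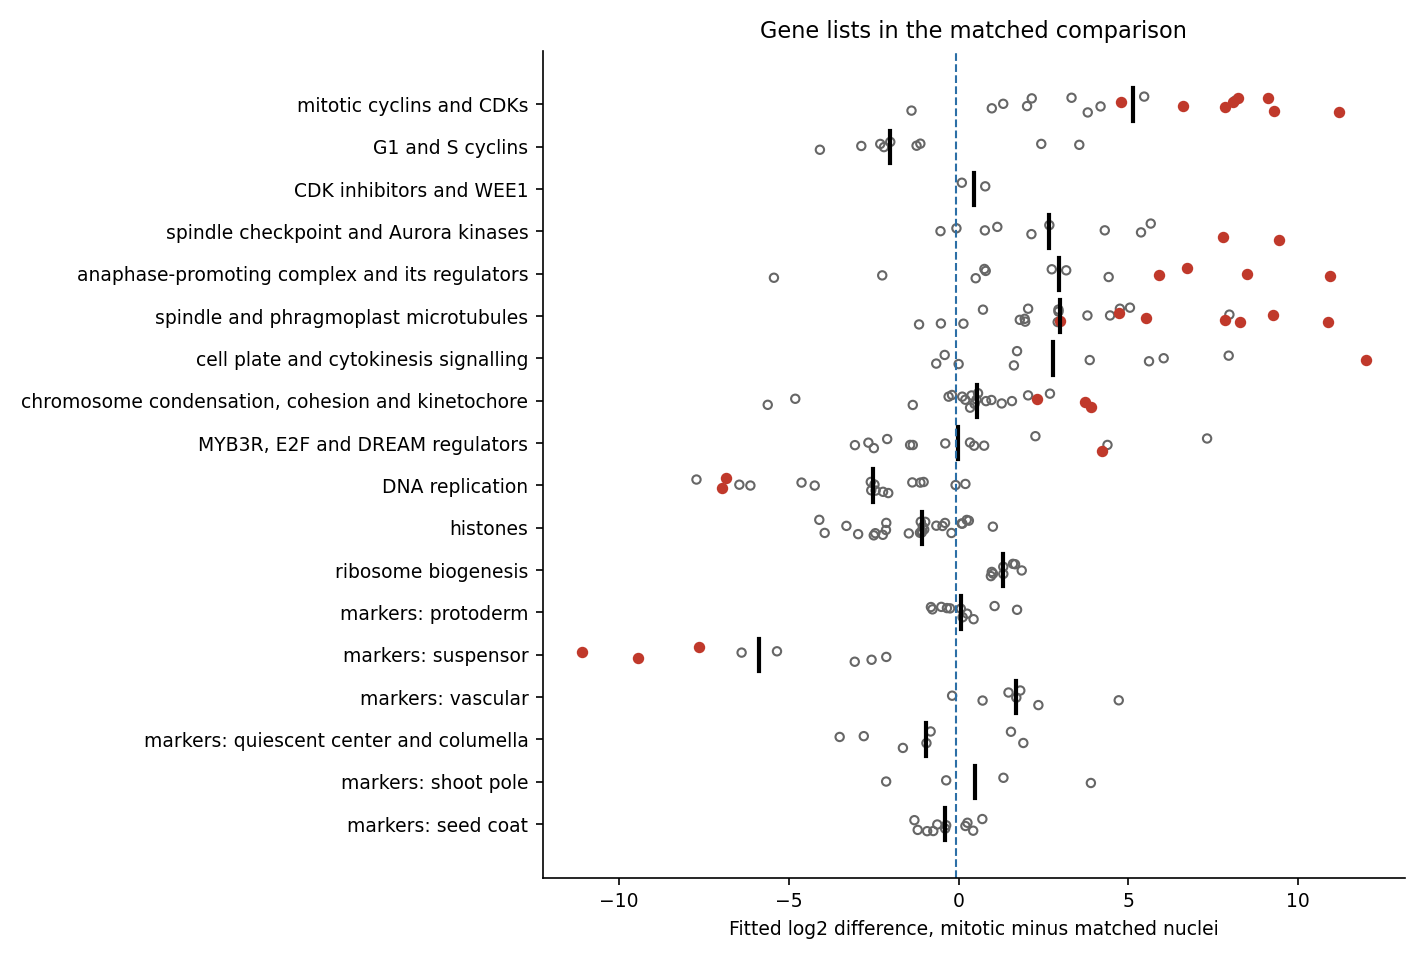
Log2 difference between mitotic and matched nuclei for every tested gene of each list. Red points passed the threshold (edgeR adjusted p below 0.05), open points did not, black bars are list medians, and the dashed blue line is the median of all 9886 genes. In this edgeR fit the mitotic cyclins and CDKs have the highest median and 8 called genes. The DNA replication and suspensor lists have called genes only on the lower side.

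The largest fitted differences belonged to genes whose median matched plate was at or near 0 CPM. Of the 10 largest among called genes detected in at least 25% of mitotic nuclei, KN and CYCB2;2 are given above, and 2 of the remaining 8 were noncoding. AT3G02120, annotated as a hydroxyproline-rich glycoprotein, had 39.6, 101 and 241 CPM in mitotic nuclei and no count in any matched nucleus. Against 3 counts over all matched nuclei it was at least 1721-fold higher, and edgeR gave an adjusted p of 4.2e-05. MRLK (AT3G56100), a receptor-like kinase of meristems, had 40.5, 217 and 643 CPM in 40 mitotic nuclei and 1 count in 1 matched nucleus, a ratio of 7724 with a counting interval of 1386 to 305105 (edgeR adjusted p = 6.2e-10). The annotation of neither gene names a step of mitosis.

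AT5G66230, annotated as a chalcone-flavanone isomerase family protein, had 155, 297 and 1427 CPM in mitotic nuclei and 0, 0 and 3.68 CPM in matched nuclei, and differed by 12.14 ± 1.26 (SE, edgeR adjusted p = 1.2e-18). It overlaps another gene by 998 bases. The noncoding locus AT1G78865 had the largest fitted difference, 12.85 ± 1.42 (SE, edgeR adjusted p = 1.9e-16), with 1 matched plate at 92.8 CPM and the remaining 7 at 0, and overlaps another noncoding locus by 447 bases. Another noncoding locus, AT3G59765, differed by 11.73 ± 1.69 (SE, edgeR adjusted p = 2.1e-09). AT3G51280, a tetratricopeptide repeat protein, differed by 11.79 ± 1.48 (SE, edgeR adjusted p = 1.8e-12), AT1G49870, annotated as myosin heavy chain-like, by 11.22 ± 1.37 (SE, edgeR adjusted p = 3.5e-13), and AT3G02640, which has no annotated function, by 11.74 ± 1.96 (SE, edgeR adjusted p = 7.2e-07). All 6 were higher on 8 of 8 plates. Except for AT1G49870, whose highest matched plate had 143 CPM, their classes did not overlap.

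DNA replication genes were among the listed genes called lower. Of 28 genes 18 were tested, 2 fell and none rose, 17 of the 18 had a negative difference, and the median log2 difference was -2.53. Lower at an unadjusted edgeR p below 0.05 were 6, beside 300 of all 9886 genes tested. DESeq2 called 7 lower and limma 3. ICU2, the catalytic subunit of DNA polymerase alpha, had 0, 0.281 and 39.0 CPM in mitotic nuclei and 0.630, 181 and 479 CPM in matched nuclei. It was lower on 8 of 8 plates, though the ranges overlapped, and fell by 6.98 ± 1.83 on the log2 scale (SE, edgeR adjusted p = 0.013). MCM5, a subunit of the replicative helicase, had 0, 0.974 and 13.2 CPM in mitotic nuclei and 0, 129.8 and 559 CPM in matched nuclei. It fell by 6.85 ± 2.00 (SE, edgeR adjusted p = 0.044) and was lower on 7 of 8 plates. The helicase subunit MCM7 had a difference of -2.58 (edgeR adjusted p = 0.71), the polymerase subunit POL2A of -1.13 and the chromatin assembly factor FAS1 of -2.23, none called. ICU2 lost the threshold without plate 2, 3 or 8, and MCM5 without any plate but plate 1. ICU2 also overlaps another gene by 1326 bases.

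Replication genes were also detected in fewer mitotic nuclei. After thinning, at least 5 of the 28 genes were detected in 13 of 76 mitotic nuclei (17.1%), in 35 of 76 matched nuclei (46.1%) and in 186 of 458 other nuclei (40.6%), a share lower on 6 of 8 plates against matched and on 7 of 8 against all other nuclei. The mean number detected per nucleus, averaged over plates, was 2.35 in mitotic, 5.28 in matched and 5.05 in all other nuclei, lower in mitotic nuclei on 8 of 8 plates in both comparisons. At least 3 were detected in 27 of the mitotic nuclei (35.5%), so both kinds of transcript were also found in the same nuclei.

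Genes of the suspensor list were the other lower group. Of 8 tested genes 3 fell and none rose, with a median log2 difference of -5.87 by edgeR and -1.61 by limma. Lower at an unadjusted edgeR p below 0.05 were 5, and DESeq2 called 5 lower and limma 4. The list was put together with earlier results of these nuclei known, so these counts are not independent evidence of its direction. CEP1, a cysteine protease, had 0, 0 and 117 CPM in mitotic nuclei and 5.04, 231 and 507 CPM in matched nuclei, lower on 7 of 8 plates, with a difference of -11.09 ± 1.88 (SE, edgeR adjusted p = 1.1e-06). ENODL2, an early nodulin-like protein, had 0, 0 and 249 CPM in mitotic nuclei and 0, 334 and 419 CPM in matched nuclei. Its fitted difference was -9.44 ± 1.94 (SE, edgeR adjusted p = 0.00022), while its level with all plates summed was 0.212 times that of matched nuclei. MLP28, a protein of the major latex family, differed by -7.64 ± 1.75 (SE, edgeR adjusted p = 0.0017). The makeup of the classes moved with these genes: at least 3 suspensor markers were detected after thinning in 7 of 76 mitotic and 36 of 76 matched nuclei. In an alternative chosen after seeing the data, nuclei with at least 3 suspensor markers were left out. Matching was then done anew, with 69 mitotic and 69 matched nuclei, so the matched nuclei also changed. There 74 genes were higher and 9 lower, and 4 of those 9 were among the 41. Then ICU2 and MCM5 still passed (log2 difference -8.13, edgeR adjusted p = 0.00018, and -7.35, edgeR adjusted p = 0.0011), the replication list had 4 lower genes of 20 tested, and none of the 3 suspensor genes still tested passed. CEP1, ENODL2 and MLP28 were then too low to be tested. Which nuclei made up the classes therefore moved with the lower side, and its part in the other lower calls was not tested.

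Of the 10 largest drops among called genes detected in at least 25% of matched nuclei and lower on all but at most 1 plate, the remaining 7 were in none of the lists. UBP21, a ubiquitin-specific protease, had 0, 0 and 32.5 CPM in mitotic nuclei and 0, 42.1 and 406 CPM in matched nuclei and a difference of -9.89 ± 2.78 (SE, edgeR adjusted p = 0.029). SSL2, named for strictosidine synthase, was at -8.95 ± 2.44 (SE, edgeR adjusted p = 0.021). ORP4C, of the oxysterol-binding protein family, was at -8.87 ± 2.44 (SE, edgeR adjusted p = 0.023). QWRF4, AT3G56360, AT2G28680 and AT1G56220 differed by -8.79, -8.25, -8.03 and -7.89, with edgeR adjusted p between 0.0013 and 0.037. Without the suspensor-marked nuclei UBP21 still passed (edgeR adjusted p = 0.00011), AT3G56360 did not, and the other 5 were too low to be tested. Each of the 7 also lost the threshold when some plate was left out: UBP21 and SSL2 without plate 1, 2, 3, 7 or 8, ORP4C without 1, 3, 6, 7 or 8, QWRF4 without any of 1 and 3 to 7, AT3G56360 without 3 or 7, AT2G28680 without 1 or 4 to 8, and AT1G56220 without 8.

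The remaining cell cycle lists held no called gene. None of 26 tested histone genes passed edgeR, with a median log2 difference of -1.09, 21 of 26 negative, 2 lower at an unadjusted p below 0.05, 3 lower by DESeq2 and none by limma. Among them the core histone HTB4 was at -0.21 and the replacement histones AT4G40040 and AT5G10980 at 0.09 and 1.01. None of 9 tested G1 and S phase cyclins passed, with a median of -2.02, none at an unadjusted p below 0.05 and 1 lower by DESeq2. CYCD4;1, CYCD2;1 and CYCA3;1, cyclins of entry into the cycle and of S phase, were at -2.02, -2.31 and -1.13. Of the CDK inhibitors and WEE1 only 2 were tested, with no call by edgeR, DESeq2 or limma or at an unadjusted p below 0.05, AT2G32710 being at 0.78.

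Ribosome biogenesis genes were all on the higher side without passing. The 8 genes had positive log2 differences from 0.95 to 1.86 with a median of 1.31, none passed edgeR, 4 had an unadjusted p below 0.05, limma called 5 higher and DESeq2 none. CBF5, which modifies ribosomal RNA, had 410.4, 1094 and 2822 CPM in mitotic nuclei and 120.3, 404 and 509 CPM in matched nuclei. It was higher on 7 of 8 plates, with a difference of 1.598 ± 0.53 (SE, edgeR adjusted p = 0.14). NOP56 differed by 0.95 ± 0.42 (SE, edgeR adjusted p = 0.57), with the mitotic value above the matched value on every plate. The share of AT3G06355 moved the same way. Its log2 difference was 0.44 and edgeR called it (adjusted p = 4.6e-21), although it was higher on only 6 of 8 plates and the plates of the classes overlapped over most of their range. Its part in these values was not tested. Without suspensor-marked nuclei the median of the 8 genes was 0.61.

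Against all 458 other nuclei, 118 of 14918 genes were higher (0.791%) and 820 lower (5.5%). The median log2 difference was -2.19, so differences there read relative to that shift, and the lower count cannot be set beside the higher one. It fell to 333, 356, 265, 276 and 361 without plate 1, 2, 5, 6 or 8. Of the 102 genes higher against matched nuclei 85 were among these 118, which is 83.3% of the former and 72.0% of the latter, and all 41 lower genes were among the 820, which is 100% and 5.0%. The comparisons share the mitotic nuclei and the matched nuclei, so this overlap is no independent support. KN differed by 7.81, CCS52B by 5.60, CYCB1;2 by 4.88 and AT1G63100 by 3.30, each with an edgeR adjusted p of at most 8.2e-06. CDKB1;2, BUBR1 and AUR2 missed the threshold there, with log2 differences of 3.82, 3.41 and 4.69 (edgeR adjusted p = 0.11, 0.085 and 0.085).

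Since genes that rise in mitosis are known targets of MYB3R factors, the pentamer core of the MSA element, AACGG or its reverse complement CCGTT, was searched on both strands of promoters from the RefSeq table of build TAIR10.1. The pentamers do not overlap each other or themselves. In the 250 bases before the start, the core was present in 52 of the 94 promoters that matched the 102 higher genes (55.3%, exact 95% interval 44.7% to 65.6%), and 29.8% held at least 2. It was in 9 of 41 promoters of lower genes (22.0%), in 23.8% of the promoters of all tested genes and in 20.6% of all 27442 protein-coding promoters. Rule genes had it in 4 of 5 promoters and replication genes in 5 of 28. These are matches of letters, described without a test. Shown are the promoters of 4 higher genes of the results above that hold the core or lack it and of the lower gene MCM5, read 5′ to 3′ on the minus strand where all 5 genes lie, with each core in capitals.
CYCB1;2: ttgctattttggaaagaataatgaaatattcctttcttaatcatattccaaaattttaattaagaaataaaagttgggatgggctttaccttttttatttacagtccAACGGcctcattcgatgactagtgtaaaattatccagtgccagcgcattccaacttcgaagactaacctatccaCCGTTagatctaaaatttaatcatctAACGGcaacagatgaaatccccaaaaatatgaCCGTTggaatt
AT1G63100: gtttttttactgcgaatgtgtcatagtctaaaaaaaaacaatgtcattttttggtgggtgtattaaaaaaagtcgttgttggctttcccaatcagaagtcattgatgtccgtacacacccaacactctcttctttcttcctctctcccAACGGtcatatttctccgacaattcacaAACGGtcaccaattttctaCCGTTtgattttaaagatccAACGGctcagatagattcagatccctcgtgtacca
KN: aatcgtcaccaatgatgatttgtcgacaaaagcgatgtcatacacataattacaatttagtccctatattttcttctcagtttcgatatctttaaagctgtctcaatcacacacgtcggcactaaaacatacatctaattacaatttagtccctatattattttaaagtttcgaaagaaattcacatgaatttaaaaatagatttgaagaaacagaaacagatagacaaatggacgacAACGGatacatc
CCS52B: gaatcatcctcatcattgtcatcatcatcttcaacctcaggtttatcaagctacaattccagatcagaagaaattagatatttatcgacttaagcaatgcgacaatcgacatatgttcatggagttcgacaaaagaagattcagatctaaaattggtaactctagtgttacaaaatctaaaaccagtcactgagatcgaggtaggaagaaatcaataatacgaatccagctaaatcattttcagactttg
MCM5: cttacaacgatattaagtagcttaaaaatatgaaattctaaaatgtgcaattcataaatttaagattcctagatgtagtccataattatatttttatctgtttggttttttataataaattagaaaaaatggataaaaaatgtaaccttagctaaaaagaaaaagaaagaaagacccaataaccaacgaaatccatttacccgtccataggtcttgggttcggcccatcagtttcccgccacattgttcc

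The window of CYCB1;2 (chr5:1861704-1861953) held 4 matches, the nearest 7 bases before the start, and AT1G63100 (chr1:23402177-23402426) held 4, the nearest 31 bases before it. KN (chr1:2711001-2711250) held 1, 8 bases before the start. The windows of CCS52B (chr5:4471467-4471716), which rose, and of MCM5 (chr2:3527501-3527750), which fell, held none. A window without these letters says only that, and a match is no evidence of binding.

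Which embryo lineages the mitotic nuclei carried markers of was read from lists, counting after thinning the nuclei of each class with at least 2 markers. Most mitotic nuclei carried protoderm and vascular markers, and by the same measure 89.5% carried seed coat markers, described below. Protoderm markers were present in 65 of 76 mitotic nuclei (85.5%), 63 of 76 matched nuclei (82.9%) and 343 of 458 other nuclei (74.9%). Vascular markers were present in 54 of 76 (71.1%), 42 of 76 (55.3%) and 213 of 458 (46.5%). Suspensor markers were present in 17 of 76 (22.4%), 42 of 76 (55.3%) and 206 of 458 (45.0%). Every retained nucleus was deep enough for thinning, and the shares without it were 92.1%, 86.8% and 81.0% for protoderm, 75%, 59.2% and 50.4% for vascular and 26.3%, 56.6% and 47.8% for suspensor markers. Markers of several lists were often found in the same nucleus, so a list does not assign a nucleus to 1 lineage: 46 mitotic nuclei had both protoderm and vascular markers, 19 protoderm without vascular, 8 vascular without protoderm and 3 neither.

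**Figure D4:**
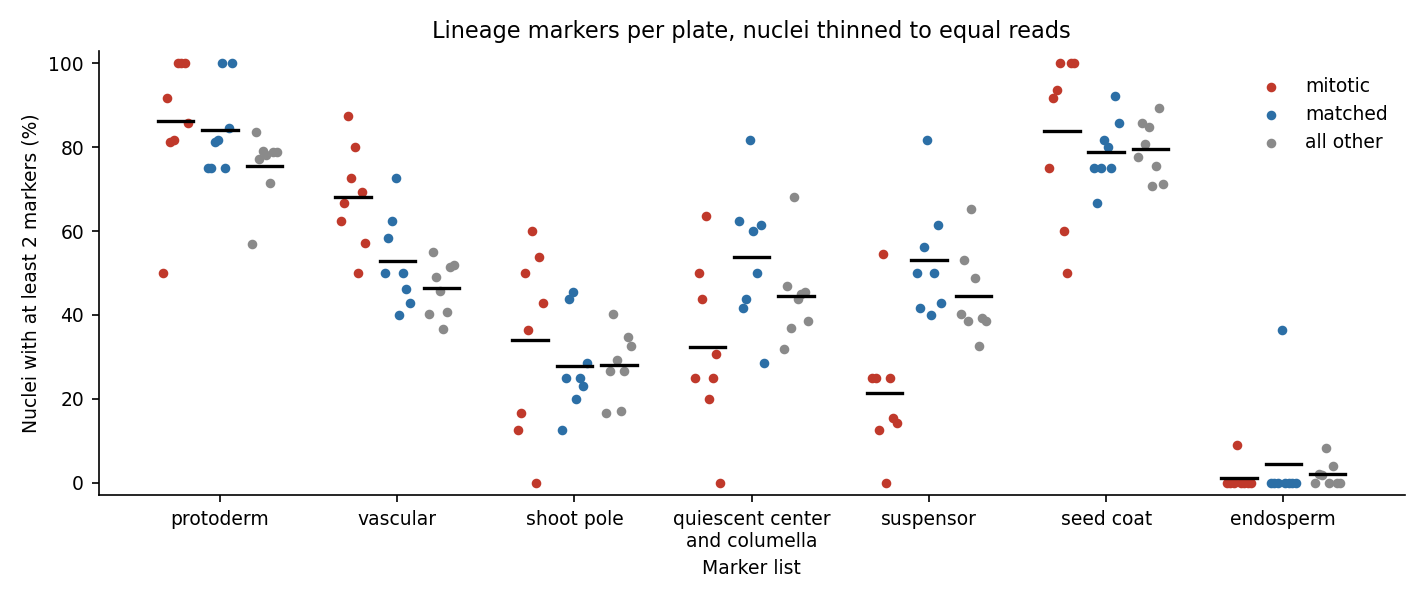
Percent of mitotic, matched and all other nuclei with at least 2 markers of each list after thinning to 100000 counts. Each point is 1 plate and black bars are means over 8 plates. The suspensor share of mitotic nuclei is below that of matched nuclei on all 8 plates, and the vascular share is above or equal to it.

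Suspensor markers were rarer in mitotic nuclei. Over plates, the lowest, median and highest share with at least 2 of 10 markers was 0%, 20.19% and 54.5% in mitotic nuclei, 40%, 50% and 81.8% in matched nuclei and 32.7%, 39.8% and 65.3% in all other nuclei. The share was lower on 8 of 8 plates in both comparisons. The mean difference was -31.6 ± 10.5 percentage points from matched nuclei (SD, n = 8 plates, exact two-sided sign-flip permutation p = 0.0078, adjusted p = 0.055) and -23.1 ± 12.8 from all other nuclei (exact permutation p = 0.0078, adjusted p = 0.027). With 8 plates a p cannot fall below 0.0078, and over 7 lists a single list with that p cannot reach an adjusted p below 0.055. WOX8, a homeobox gene of the basal lineage, was detected in 10.5% of mitotic, 36.8% of matched and 27.9% of all other nuclei, and CEP1 in 5.26% of mitotic, 34.2% of matched and 23.6% of all other nuclei. Without any 1 of plates 2 to 8 the adjusted p against all other nuclei was 0.055, with differences between -25.3 and -19.4. The suspensor list was chosen with earlier results of these data known, so its direction is not independent evidence. All 17 mitotic nuclei with suspensor markers also had protoderm markers.

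Seen from the suspensor side, 7 of the 161 retained nuclei with at least 3 suspensor markers were mitotic (4.35%, exact 95% interval 1.77% to 8.75%), against 69 of the 373 with fewer (18.5%, 14.7% to 22.8%). The share was lower among suspensor-marked nuclei on 8 of 8 plates. The suspensor-marked nuclei had a median of 541376 counts and 3193 features, against 413504 and 2202 in the rest. They were chosen by detected markers, which favours nuclei with many features, and a part of depth in these shares was not tested. Single rule genes were found in 6.21% to 19.3% of the suspensor-marked nuclei.

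Vascular markers were more frequent in mitotic nuclei. The share with at least 2 of 14 markers was 50%, 67.9% and 87.5% over plates in mitotic nuclei, 40%, 50% and 72.7% in matched and 36.6%, 47.5% and 55.1% in all other nuclei. It was higher on 6 plates and lower on none against matched nuclei, by 15.4 ± 13.6 percentage points (SD, n = 8 plates, exact permutation p = 0.031, adjusted p = 0.073), and higher on 8 of 8 plates against all other nuclei, by 21.8 ± 13.8 (exact permutation p = 0.0078, adjusted p = 0.027). Without any 1 of plates 2 to 8 the adjusted p of the latter was 0.055, with differences between 18.7 and 24.2. The mean number of vascular markers differed by 0.691 ± 0.654 from matched nuclei (exact permutation p = 0.023, adjusted p = 0.073) and by 0.692 ± 0.585 from all other nuclei (exact permutation p = 0.023, adjusted p = 0.055), each higher on 7 of 8 plates. AGO10, an argonaute of the central domain, was detected in 53.9% of mitotic, 36.8% of matched and 32.5% of all other nuclei. MP, an auxin response factor of the whole lower embryo, was in 68.4% of mitotic, 68.4% of matched and 57.2% of all other nuclei, and TMO5, a vascular bHLH factor, in only 1 mitotic nucleus. None of 7 tested genes of the list passed edgeR in the matched comparison, none had an unadjusted p below 0.05, and neither DESeq2 nor limma called any, AGO10 being at 1.47 on the log2 scale.

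Protoderm markers were present in most nuclei of every class. The share with at least 2 of 12 markers differed by 2.22 ± 16.6 percentage points (SD, n = 8 plates, exact permutation p = 0.69, adjusted p = 0.80), with plates in both directions. Against all other nuclei, which had fewer features, it differed by 10.8 ± 11.9 percentage points and was higher on 7 of 8 plates (exact permutation p = 0.047, adjusted p = 0.096), and the mean number of markers was higher by 1.02 ± 0.655 on 8 of 8 plates (exact permutation p = 0.0078, adjusted p = 0.027), and without plate 1 or any of 3 to 8 the adjusted p was 0.055. PDF1, an epidermal proline-rich protein, was detected in 75% of mitotic, 60.5% of matched and 47.6% of all other nuclei, and the layer regulator ATML1 in 51.3% of mitotic, 64.5% of matched and 47.6% of all other nuclei. PDF1, PDF2 and FDH, an enzyme of wax synthesis, had log2 differences of 0.12, 0.06 and -0.51 from matched nuclei, none called. No gene of 11 tested passed edgeR, DESeq2 or limma or had an unadjusted p below 0.05.

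Quiescent center and columella markers were at 0%, 27.9% and 63.6% of mitotic and 28.6%, 55% and 81.8% of matched nuclei at the lowest, median and highest plate. The difference was -21.5 ± 17.4 percentage points, lower on 6 of 8 plates (SD, n = 8 plates, exact permutation p = 0.031, adjusted p = 0.073). NTT and WIP4, zinc finger factors of the root pole, were detected in 11.8% of mitotic, 35.5% of matched and 24.5% of all other nuclei and in 11.8% of mitotic, 31.6% of matched and 21.2% of all other nuclei. WOX5, the homeobox gene of the quiescent center, was in 14.5% of mitotic, 14.5% of matched and 9.61% of all other nuclei, and 6 mitotic nuclei had both WOX5 and JKD. No gene of 7 tested passed edgeR, although 1 was lower at an unadjusted p below 0.05 and by DESeq2 and limma. Shoot pole markers, in 36.8%, 30.3% and 28.2% of mitotic, matched and other nuclei, differed by 6.11 ± 21.6 percentage points (SD, n = 8 plates, exact permutation p = 0.45, adjusted p = 0.70). WUS was detected in none of the 76 mitotic nuclei, which allows nuclei with a read to be up to 3.95% and sets no limit on expression, and in 4 other nuclei. None of 4 tested shoot pole genes passed edgeR or limma or had an unadjusted p below 0.05, while DESeq2 called 1 higher.

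Markers of tissues outside the embryo were checked the same way. Seed coat markers, at least 2 of 17, were in 89.5% of mitotic, 78.9% of matched and 80.1% of other nuclei, and at least 6 were in 33 of 76 (43.4%), 27 of 76 (35.5%) and 130 of 458 (28.4%). The difference in the share with at least 2 was 4.86 ± 18.5 percentage points from matched nuclei (SD, n = 8 plates, exact permutation p = 0.50, adjusted p = 0.70) and 4.34 ± 16.9 from all other nuclei (exact permutation p = 0.48, adjusted p = 0.48). The share with at least 3 was higher than in all other nuclei on 7 of 8 plates, by 10.2 ± 9.02 percentage points (exact permutation p = 0.016, adjusted p = 0.036), and differed by 9.23 ± 10.9 from matched nuclei (exact permutation p = 0.12, adjusted p = 0.29). The former call was lost without any 1 plate (differences from 8.48 to 11.8, exact permutation, adjusted p = 0.055 to 0.073) and without thinning (7.76, exact permutation, adjusted p = 0.21). BAN, an enzyme of tannin synthesis in the inner seed coat, was detected in 72.4% of mitotic, 61.8% of matched and 54.4% of all other nuclei, with 46.5, 142 and 1990.5 CPM in mitotic nuclei and 121, 428 and 1193 CPM in matched nuclei. INO, a factor of the outer integument, was in only 2 mitotic nuclei, KAN4 in 1 and TT10 in 0. Where these seed coat reads came from was not tested. Leaving out the nuclei with at least 6 seed coat markers was an alternative chosen after seeing the data. It left 41 mitotic nuclei on 7 plates, which were matched anew to 41 other nuclei. Then 68 genes were higher and 27 lower in the matched comparison, 62 and 15 of them among the 102 and 41. Endosperm markers, at least 2 of 8, were in 1 mitotic nucleus, 4 matched and 10 other nuclei, and no endosperm gene was abundant enough to be tested. IKU2 and ZOU had no count in any mitotic nucleus after thinning. None of 11 tested seed coat genes passed edgeR, DESeq2 or limma or had an unadjusted p below 0.05.

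Mitotic nuclei varied among themselves. At least 1 B cyclin was detected in 70 of 76 mitotic nuclei (92.1%), in 35 of 76 matched and in 182 of 458 other nuclei. At least 3 B cyclins were detected in 55 mitotic nuclei (72.4%), 5 matched (6.58%) and 12 other nuclei (2.62%), so several B cyclins in 1 nucleus separated the classes more than the presence of any B cyclin. KN, which acts at the cell plate, was in 32 mitotic nuclei, always together with a B cyclin, while 38 had a B cyclin without KN and 6 had neither. By number of rule genes, 3, 4 or 5, KN was detected in 5 of 32, 11 of 19 and 16 of 25 nuclei. CYCB1;1 was detected in 6 of 32, 10 of 19 and 13 of 25, CYCB1;2 in 16 of 32, 13 of 19 and 22 of 25 and CYCB2;2 in 10 of 32, 11 of 19 and 21 of 25. CCS52B was in 18 of 32, 18 of 19 and 23 of 25 and AT1G63100 in 28 of 32, 18 of 19 and 25 of 25, so the latter was common even at the edge of the rule. CYCA1;1, a cyclin of S and G2 phase, did not follow that order, with 13 of 32, 12 of 19 and 8 of 25.

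Where it was detected, CCS52B reached a median of 1668 and a maximum of 21231 CPM in 1 nucleus, and KN a median of 526 and a maximum of 2805 CPM. Genes of replication were scattered: ICU2 and MCM5 were each detected in 11 of 76 mitotic nuclei, PCNA1, the sliding clamp, in 10. A nucleus with no read of a gene at this depth may still hold its transcript, so these patterns describe detection.

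**Figure D5:**
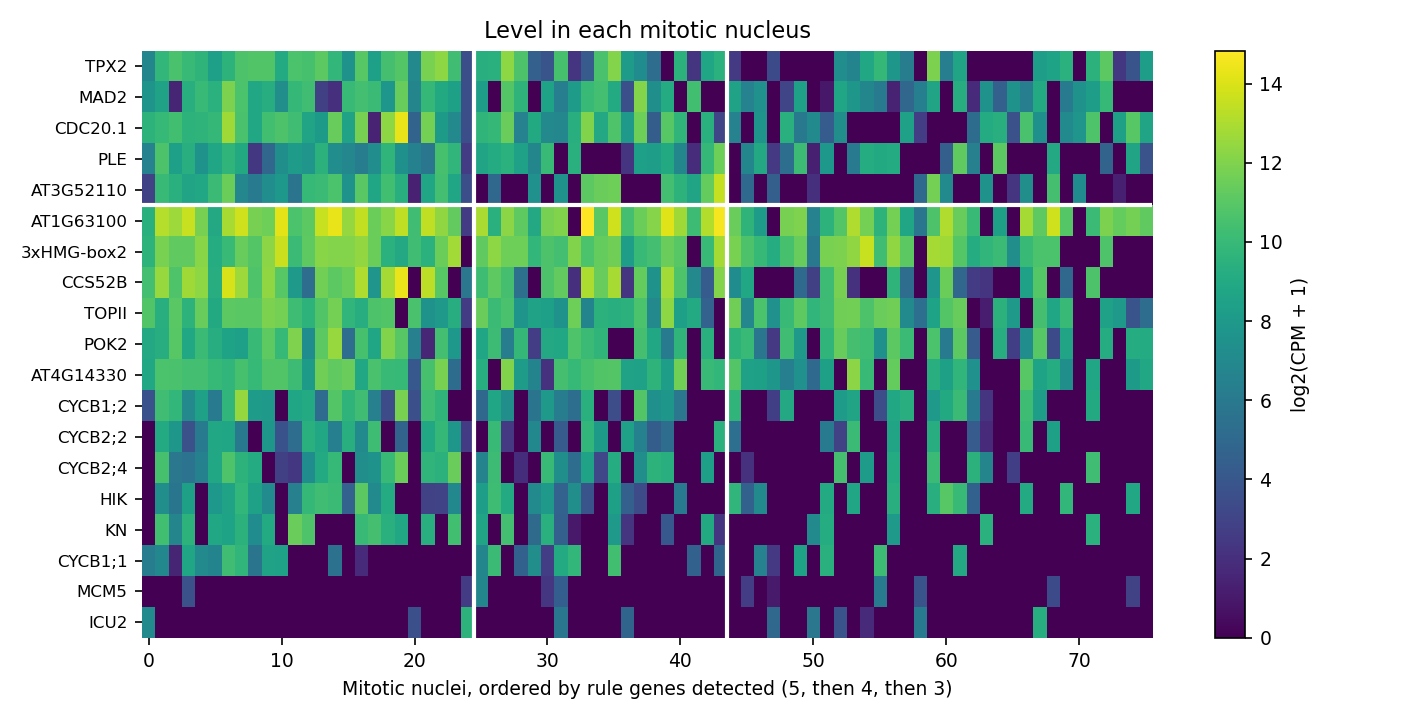
Level of the 5 rule genes and 14 other genes (rows, rule genes above the white line) in each of the 76 mitotic nuclei (columns, ordered by 5, 4 and 3 rule genes), as log2 of CPM plus 1. CYCB1;2 is present in 88% of nuclei with all 5 rule genes and 50% of those with 3, and KN in 64% and 15.6%, with single nuclei apart from that order, and none of the genes shown is present in all 76.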

How the data were processed

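The deposited tables held 1 column for each of 744 wells on 8 plates. Per the labels and the study's methods, the authors trimmed single-end reads with cutadapt 2.6, and estimated counts came from kallisto against EnsemblPlants TAIR10 transcripts with spike-in and sGFP sequences. The kallisto version, its use of strand and the step from transcripts to whole numbers per gene are not given in the sources used here. Barcode tables were read only to count index pairs, of which 93 were shared by all 8 plates, so nuclei are identified by plate and well.

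Members and gene lists were chosen with earlier results of these data known. Counts were summed per plate and class. Differences were tested with the quasi-likelihood test of edgeR 4.0.16 (R 4.3.3), with plate as a block, default filtering by expression, normalization by trimmed mean of M-values and Benjamini-Hochberg adjustment over all tested genes at 0.05. The test shares its estimate of spread across genes, so a p can be far smaller than 8 plates alone would allow. Other nuclei were matched on the plate by number of features, and matched anew under each alternative that changed the members or the nuclei kept. Shares and marker numbers were counted after each nucleus was thinned to 100000 counts, and differences over plates were tested by exact two-sided sign-flip permutation, adjusted over 7 marker lists. The plate number marks the shared plate, which is the pairing. Deviations of same-plate samples correlated by 0.0036 to 0.183 over 13128 genes, best with the own plate for 4 of 8 plates. Sorting was set to put 1 nucleus in a well, and no doublet caller was run. The study said that its discarded cluster with several cell types may stem from aggregated or fragmented nuclei. Whether each well held 1 whole nucleus was not tested here.

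Genes named were the 10 with the largest differences in each direction among called genes with the same direction on all but at most 1 plate and detected in at least 25% of the nuclei of the higher class, every called list member, and up to 3 further members of each list with the most frequent detection; MYB3R4, MYB3R5, E2FA, E2FB, RBR1, PCNA1, AT3G06355, the single lineage markers beyond these and the genes of the closing observations were chosen after their values were seen. Alternatives were limma 3.58.1 on mean log2 CPM with a pseudocount of 1, DESeq2 1.42.0, no block, no filter, other rule and nucleus limits, matching on total counts, and leaving out each plate. Leaving out nuclei with at least 3 suspensor or at least 6 seed coat markers, counted after thinning, was chosen after seeing the data. Another alternative left out nuclei with at least 2 suspensor or at least 6 seed coat markers, counted without thinning. Promoters came from RefSeq (TAIR10.1). Each test was checked on simulated counts. Some values of single list members are not reported here. Python 3.11.15, numpy 2.4.6, pandas 2.3.3, scipy 1.17.1 and matplotlib 3.10.9 were used. With no molecular identifiers, reads are not independent molecules, and intervals cover counting error only.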

Additional observations from a re-analysis of the deposited data

Results flagged for a closer look

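Values of single plates stood apart in 6 of 54 groups of 8 plates examined, where chance would mark about 1 in 20. Mitotic nuclei of plate 4 had a median of 5674 features, against 2078.5 to 3258 on the other plates. The log2 (CPM + 1) difference between mitotic and matched nuclei of AT1G78865, a noncoding locus, was 0.12 on plate 1 and 7.39 to 10.26 on the others. AT1G49870 differed by 2.35 on plate 5 and by 6.52 to 9.29 elsewhere, UBC20 by 2.53 on plate 3 and by 6.23 to 8.68 elsewhere, and ATK5 by 1.76 on plate 1 and by 7.03 to 8.41 elsewhere. For 3xHMG-box2 the difference was -0.10 on plate 5 and 2.69 to 5.08 on the others. No cause of these departures was tested.

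Reads were also found outside the genes and nuclei compared. Of the 210 wells below the limits on counts or features, 6 (2.86%, on 3 plates) had at least 3 rule genes, with a median of 104114 counts and 690 features. Reads of sGFP, the transgene sequence in the index, were in 15 of 76 mitotic nuclei (19.7%), 14 of 76 matched nuclei (18.4%) and 59 of 458 other nuclei (12.9%).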

How the results depend on the processing

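Against matched nuclei, where 102 genes were higher and 41 lower, the counts were 382 and 556 by DESeq2, 253 and 162 by limma, 66 and 22 with at least 4 rule genes, and 32 and 4 without the replicate block. They were 17 and 2 under a stricter filter, with 27 mitotic nuclei on 6 plates. That filter left out nuclei with at least 2 suspensor or at least 6 seed coat markers, counted without thinning. The lower count was 19 when matched on total counts, 9 without nuclei with 3 suspensor markers, 27 without nuclei with 6 seed coat markers, both chosen after seeing the data, and 18 to 48 without single plates, while the higher count ranged from 69 to 104. All 32 and 4 calls without the block were among the 102 and 41, as were 99 and 40 of DESeq2's and 99 and 38 of limma's. Against all other nuclei, with 118 and 820, DESeq2 gave 242 and 6330, limma 565 and 252, and the stricter filter on suspensor and seed coat markers 19 and 38. There the higher count was 76 without suspensor-marked and 77 without seed-coat-marked nuclei. The lower count was 142 without suspensor-marked nuclei, 119 with at least 2 rule genes, 4315 with at least 4, 2240 with membership taken after thinning, 87 without the replicate block, and 265 to 984 without single plates. Of 46 named calls against matched nuclei, 46 passed under DESeq2 and 46 under limma, 16 without the block, 39 without the filter on low counts, 41 after thinning, 33 with at least 2 rule genes, 30 with at least 4, 34 when matched on total counts, 32 without suspensor-marked nuclei, 28 without seed-coat-marked nuclei and 12 under the stricter filter on both kinds of marker, and 29 passed without each plate in turn. A change of sign was counted only where a gene passed the threshold in the main fit or in the alternative. By that measure no named difference against matched nuclei changed sign, while genes called in neither fit were not counted. Against all other nuclei PDF1 (AT2G42840) turned to 2.16 by limma and PLT1 (AT3G20840) to -4.32 with at least 4 rule genes.

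The share of mitotic nuclei was 21.9% with at least 2 rule genes and 8.24% with at least 4. Among marker values over plates, with plates left out singly, the difference from matched nuclei ranged from -1.03 to 6.11 points for protoderm (negative without plate 6), from -0.088 to 0.136 for the mean number of protoderm markers (negative without plates 6 or 7) and from -3.90 to 0 for endosperm (0 without plate 4). Differences from all other nuclei ranged from 8.26 to 13.3 points and 0.836 to 1.11 markers for protoderm, -25.3 to -19.4 points and -1.10 to -0.867 markers for suspensor, and 18.7 to 24.2 points and 0.553 to 0.809 markers for vascular. Without thinning, the vascular mean number differed by 0.724 (exact permutation, adjusted p = 0.036) and the endosperm mean number by 0.00925. Median counts exceeded those of other nuclei by 79442 to 169235 without single plates. In the whole 300-base promoter window the MSA core was in 73.4% of called higher and 24.6% of all protein-coding genes. The causes of these shifts were not tested, apart from the smaller number of nuclei or plates that an alternative leaves. Depth limits the rest: transcripts absent from a nucleus at 100000 counts were not detectable there, which is not absence.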

Other observations

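The genes in this section were chosen after their values were seen, from among the called genes outside the lists. Early nodulin-like (ENODL) proteins, small cell surface proteins related to copper-binding plastocyanins, were on both sides. Of 22 ENODL genes 9 were tested, and 5 were higher in mitotic than in matched nuclei. ENODL14 had 144, 253 and 531 CPM in mitotic nuclei and 0, 0 and 45.9 CPM in matched nuclei at the lowest, median and highest plate, with a log2 difference of 10.97 (edgeR adjusted p = 1.4e-09). ENODL3 had 291, 565 and 1089.5 CPM in mitotic nuclei and 0, 14.7 and 289 CPM in matched nuclei, a difference of 6.82 (edgeR adjusted p = 6.7e-08). Plates of the classes did not overlap for either, and they were detected in 51 and 55 mitotic nuclei, and in 3 and 9 matched ones. ENODL13, ENODL4 and ENODL15 differed by 9.65 (edgeR adjusted p = 2.3e-07), 10.17 (edgeR adjusted p = 0.0069) and 8.49 (edgeR adjusted p = 3.2e-06). Plates of the classes overlapped for ENODL4 and ENODL15. Against all other nuclei ENODL4 differed by only 1.37 (edgeR adjusted p = 0.50), beside 7.73 for ENODL13 and 5.83 for ENODL15. ENODL2, which is in the suspensor list, and ENODL1 were lower, by -9.44 (edgeR adjusted p = 0.00022) and -7.17 (edgeR adjusted p = 0.048).

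Annotated as kinesins or kinesin-like proteins, AT4G26660, AT5G55520, AT2G22610, AT3G20150 and AT1G72250 were higher by 9.91, 9.02, 5.95, 5.70 and 5.18 on the log2 scale, with edgeR adjusted p from 2.2e-09 to 0.018. They were detected in 51, 53, 45, 57 and 60 of 76 mitotic nuclei. AT5G15510 and AT3G01710, which the annotation puts in the family of the rule gene TPX2, were higher by 7.31 (edgeR adjusted p = 0.00022) and 8.61 (edgeR adjusted p = 0.00023). The beta-tubulin gene TUB7, a subunit of the microtubule itself, was higher by 2.86 (edgeR adjusted p = 0.0038) and had reads in 66 mitotic and 32 matched nuclei.

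Among single called genes, IMK2, a receptor-like kinase of the inflorescence meristem, had 658, 1219 and 6344 CPM in mitotic nuclei and 0, 25.1 and 229 CPM in matched nuclei and a log2 difference of 8.30 (edgeR adjusted p = 7.0e-28). CSLD5, a cellulose synthase-like enzyme, had 273, 621 and 1222 CPM in mitotic nuclei and 0, 1.59 and 241 CPM in matched nuclei and a difference of 8.27 (edgeR adjusted p = 3.9e-10). On the lower side, YUC3, an enzyme of auxin synthesis, differed by -4.40 (edgeR adjusted p = 4.2e-05), ARR3, a response regulator of cytokinin signalling, by -6.63 (edgeR adjusted p = 0.00061), AMP1, a peptidase family protein that limits meristem size, by -6.69 (edgeR adjusted p = 0.00025), and DML3, a DNA demethylase, by -3.85 (edgeR adjusted p = 0.00061). Matched nuclei held more suspensor-marked nuclei, and the study reported DML3 transcripts as enriched in the basal lineage, suspensor included. Without suspensor-marked nuclei only 4 of the 41 lower genes were still called, ICU2, MCM5 and UBP21 among them. The part of class makeup in the values of YUC3, ARR3, AMP1 and DML3 was not tested.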
